A study of Mus musculus with 26 samples.

Results

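The genes that dampen or carry out cyclic AMP (cAMP) signalling were followed in mouse intestinal organoids given arachidonic acid (AA) or prostaglandin E2 (PGE2). The set holds 9 genes taken by symbol, out of 55385 gene identifiers in the count tables: the CRE-binding factors Crem and Creb5, the kinase Sik1, the phosphodiesterases Pde4a, Pde4b and Pde4d, the G protein regulator Rgs2, the kinase scaffold Akap12 and the clock gene Per1. Each symbol matched 1 identifier. Organoids were grown in Matrigel from crypts of C57BL/6 mice with EGF, Noggin, R-spondin, CHIR-99021 (an activator of Wnt signalling) and Y-27632, which the vehicle cultures received too. They were given vehicle, 25 µM AA or 50 nM PGE2. On days 1 and 3 all 3 treatments were sampled, with 3 libraries per group, and on day 6 vehicle and AA, with 4 per group, which makes 26 libraries in 8 groups. The treatment notes name PGE2 and the design text names a dimethyl analogue of it. Neither source settles which of them the cells received, and PGE2 stands for either. The labels leave out the age and sex of the mice, the vehicle, and whether replicates were separate cultures or animals, so every p-value measures the spread between these libraries.

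As background, PGE2 binds G protein-coupled receptors, of which EP2 and EP4 (genes Ptger2 and Ptger4) raise cAMP, and AA is the fatty acid from which cyclooxygenases start the synthesis of prostaglandins. cAMP frees the catalytic subunits of protein kinase A (PKA), which phosphorylate CREB at cAMP response elements (CREs), and CREB with its CRTC co-activators switches on early genes. Several of the genes that CREB switches on act against the signal: PDE4 enzymes degrade cAMP, a short Crem product (ICER) competes for CREs, and SIK1 keeps CRTCs out of the nucleus.

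The total count per library ranged from 10088285 to 14615719 on days 1 and 3 and from 16141385 to 19762827 on day 6. Levels are CPM (read counts scaled to a common library total) after TMM (trimmed mean of M-values) scaling, which was done within each deposited table, so that day 6 levels were scaled apart from the others. Mitochondrial rRNA took 6.74% to 10.3% of counts on days 1 and 3 and 0.00305% to 0.266% on day 6, so day and table cannot be told apart between day 6 and the earlier days. All 17 epithelial markers had reads in every group. Vehicle replicate 4 of day 6 stood apart from the other vehicle libraries of that day, at -37.9 on the first principal component of log2 CPM against -18.4 to -16.4.

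CRE letters in the promoters of these genes are shown first, since the genes are grouped by their place in the CREB pathway. RefSeq promoter windows (GRCm38.p6, 250 bases before to 50 after a start) were used for 6 of the 9 genes, 13 windows in all. Member windows on the chromosome that holds Crem were left out, so the promoters of Crem were not searched. Sik1 and Akap12 had no window among those used. The full CRE, TGACGTCA, stood in 1 of the 13 windows, that of Creb5, with its first base at -45 (45 bases before the start), and in 1.79% of all 32851 windows. The CRE core TGACG, on either strand, stood in 6 of the 13 windows, from 5 genes, and in 20.8% of all windows; a full CRE holds the core on both strands. The windows of Pde4d (chr13:108653927-108654226, + strand) and 6 others of Pde4b, Pde4a and Creb5 held no match. Windows of 1 gene are not independent, and a match is only a match of letters. The 5 windows below, 1 for each gene with a match, are written 5′ to 3′ on the gene's strand with the matches in capitals: Creb5 (chr6:53287053-53287352, +), Pde4b (chr4:102421305-102421604, +, core from -34), Pde4a (chr9:21183851-21184150, +, core from -50), Per1 (chr11:69099902-69100201, +, core from -132) and Rgs2 (chr1:144004100-144004399, - strand, cores from -185 and -67).
Creb5: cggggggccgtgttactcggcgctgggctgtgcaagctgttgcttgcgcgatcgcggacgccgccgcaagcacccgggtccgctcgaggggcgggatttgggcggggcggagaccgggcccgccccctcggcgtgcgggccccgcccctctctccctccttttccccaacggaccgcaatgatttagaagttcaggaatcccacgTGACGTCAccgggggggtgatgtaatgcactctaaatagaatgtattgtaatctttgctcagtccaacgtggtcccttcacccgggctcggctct
Pde4b: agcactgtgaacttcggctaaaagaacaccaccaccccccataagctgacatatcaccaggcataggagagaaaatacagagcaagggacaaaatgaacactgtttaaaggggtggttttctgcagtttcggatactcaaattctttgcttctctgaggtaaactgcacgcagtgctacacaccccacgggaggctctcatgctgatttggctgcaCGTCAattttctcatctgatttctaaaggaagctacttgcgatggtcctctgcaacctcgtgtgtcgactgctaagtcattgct
Pde4a: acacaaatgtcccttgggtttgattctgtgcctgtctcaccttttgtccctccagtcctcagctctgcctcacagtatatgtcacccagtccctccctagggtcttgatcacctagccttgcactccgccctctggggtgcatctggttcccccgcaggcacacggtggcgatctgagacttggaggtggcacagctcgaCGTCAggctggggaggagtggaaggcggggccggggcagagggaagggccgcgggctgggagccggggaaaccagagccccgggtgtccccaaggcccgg
Per1: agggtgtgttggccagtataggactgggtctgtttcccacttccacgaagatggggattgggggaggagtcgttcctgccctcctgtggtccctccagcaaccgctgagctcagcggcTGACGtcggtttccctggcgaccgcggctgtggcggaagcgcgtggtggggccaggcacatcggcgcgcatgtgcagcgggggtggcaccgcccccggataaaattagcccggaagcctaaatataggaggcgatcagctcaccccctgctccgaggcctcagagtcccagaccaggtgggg
Rgs2: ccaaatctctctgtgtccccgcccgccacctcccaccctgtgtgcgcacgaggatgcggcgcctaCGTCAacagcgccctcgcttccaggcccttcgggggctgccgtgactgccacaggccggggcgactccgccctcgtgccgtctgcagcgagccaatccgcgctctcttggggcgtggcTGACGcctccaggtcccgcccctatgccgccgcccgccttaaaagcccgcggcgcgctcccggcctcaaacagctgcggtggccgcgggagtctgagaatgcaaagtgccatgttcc

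With PGE2 on day 1, 6 of the 8 tested genes rose and 0 fell against vehicle (adjusted p under 0.05, edgeR): Creb5, Sik1, Per1, Pde4a, Pde4b and Pde4d. Of all 14850 genes tested, 27.0% rose and 28.9% fell in that comparison. On day 3 of PGE2, 4 rose (Sik1, Per1, Pde4b and Rgs2) and 1 fell (Creb5), against 28.9% and 30.1% of all tested genes. Pde4b entered the test only through PGE2 libraries, and Rgs2 mostly through them, so their rises with PGE2 add no support to these counts. With AA on day 1, 2 rose (Creb5 and Sik1) and 0 fell, against 19.5% and 22.2% of all genes. On day 3 of AA 0 rose and 1, Creb5, fell, against 21.2% and 20.1% of all genes. On day 6, 0 of the 7 tested genes were called by edgeR, while 15.3% of all 14663 genes tested rose and 15.5% fell; 0 of the 7 had an unadjusted p under 0.05, and DESeq2 called 0 as well. The median log2 fold change of the tested genes was 0.83 with PGE2 on day 1, 0.46 on day 3, 0.39 with AA on day 1, -0.19 on day 3 and 0.01 on day 6, and the medians over all tested genes lay between -0.04 and -0.01. AA and PGE2 of a day were set against the same vehicle libraries.

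Not all 9 genes could be tested. The filter on low counts asked for about 0.758 CPM on days 1 and 3 and 0.530 CPM on day 6. Pde4b passed it on days 1 and 3 only through the 6 PGE2 libraries, and Rgs2 through 7 libraries, all of PGE2 or of vehicle on day 3. A gene that passed only through a group where it was high had to differ between groups. Akap12 was tested on no day (83 reads over 18 libraries and 3 over 8), and Creb5 was not tested on day 6 (78 reads).

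**Figure D1:**
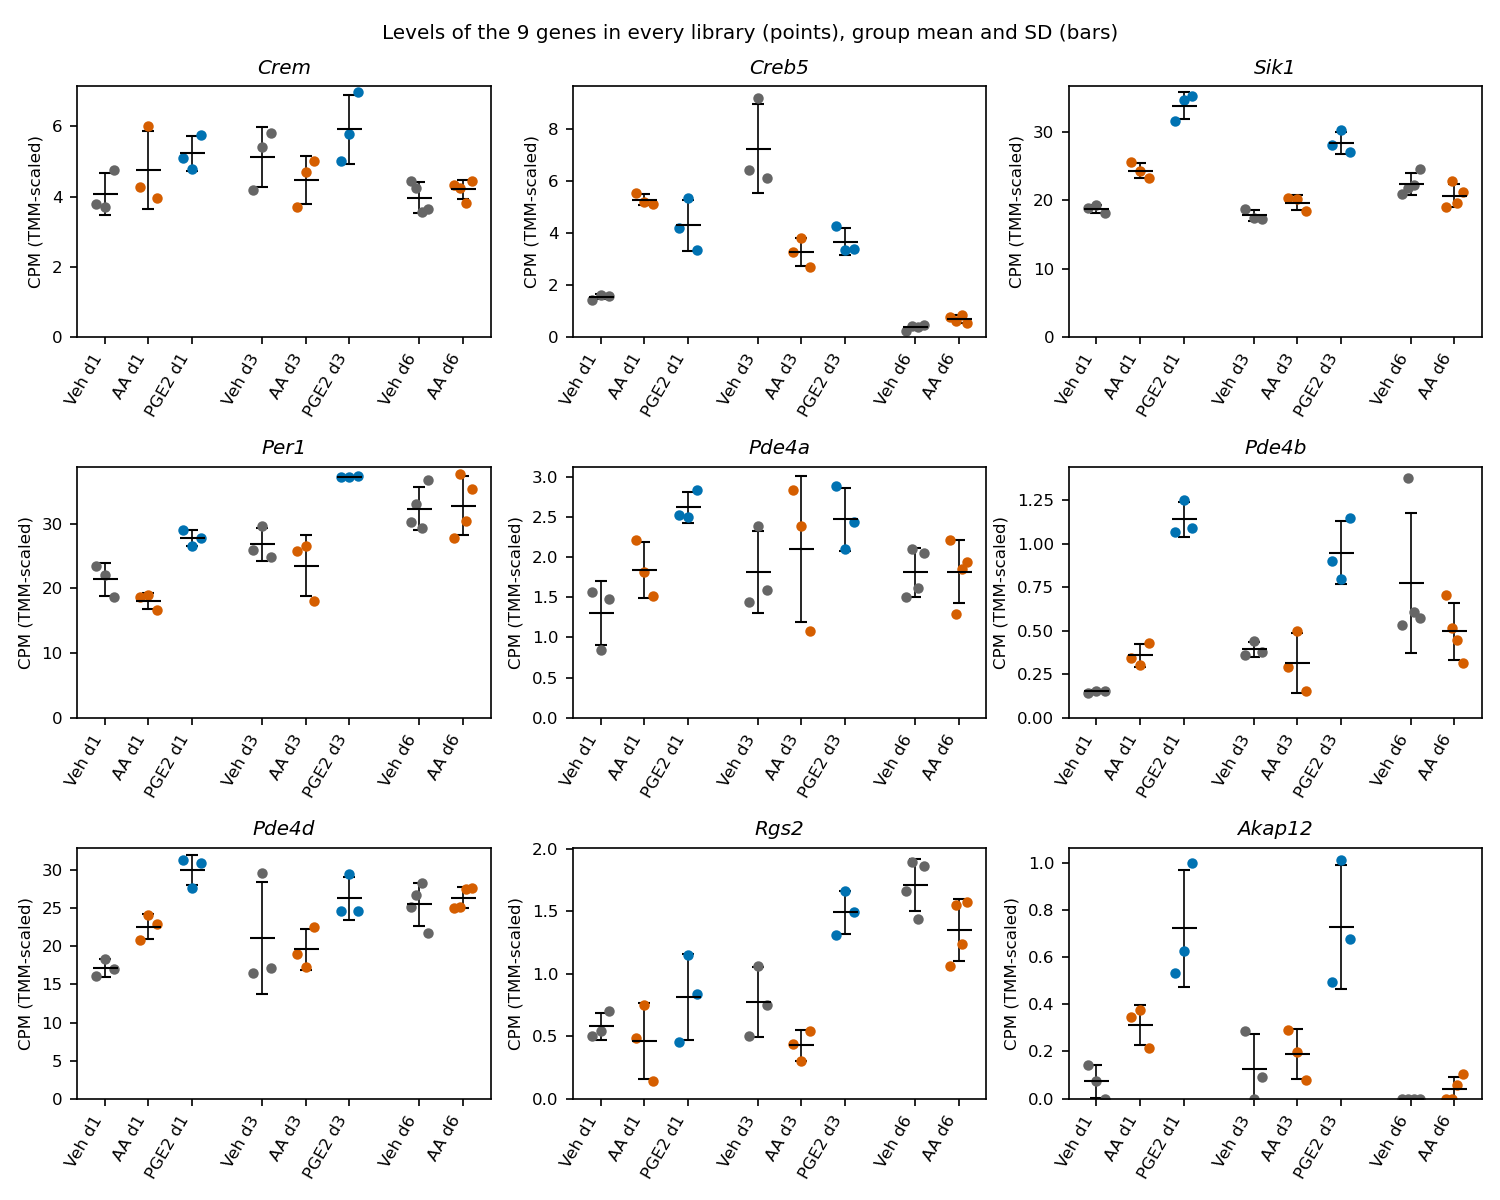
CPM of each of the 9 genes (vertical axes, linear and starting at 0) in each of the 26 libraries (points) by treatment and day, with the group mean and SD as bars (n = 3 on days 1 and 3, n = 4 on day 6). The PGE2 libraries of Sik1 and Pde4b lie above the vehicle and AA libraries of their day, and Creb5 is highest in vehicle on day 3.

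Creb5 (ENSMUSG00000053007.9), a bZIP factor of the ATF2 group that binds CREs, was the only one of the 9 called in opposite directions on days 1 and 3. On day 1 it was at 1.43, 1.61 and 1.56 CPM in vehicle, 5.52, 5.19 and 5.11 CPM with AA, and 4.19, 5.32 and 3.35 CPM with PGE2. All treated libraries lay above all vehicle libraries. The log2 fold change was 1.78 ± 0.22 (SE) with AA (adjusted p = 6.0e-08) and 1.46 ± 0.23 with PGE2 (adjusted p = 2.6e-06). On day 3 vehicle held 6.42, 9.20 and 6.09 CPM, AA 3.27, 3.79 and 2.70 CPM, and PGE2 4.27, 3.32 and 3.39 CPM. All treated libraries now lay below all vehicle libraries, with log2 fold changes of -1.16 ± 0.19 with AA (adjusted p = 6.4e-06) and -0.99 ± 0.18 with PGE2 (adjusted p = 2.0e-05).

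The vehicle level of Creb5 itself moved: from 1.54 ± 0.0957 CPM (SD, n = 3) on day 1 to 7.24 ± 1.71 CPM on day 3, a log2 change of 2.23 ± 0.21 (adjusted p = 1.5e-09). The response to AA differed between the days by -2.94 ± 0.28 on the log2 scale (day 3 minus day 1, adjusted p = 9.7e-09), and that to PGE2 by -2.45 ± 0.29 (adjusted p = 1.2e-07); both rest on the same vehicle libraries. On day 6 Creb5 was low, at 4, 8, 7 and 7 reads in vehicle (0.214 to 0.448 CPM) and 15, 12, 15 and 10 reads with AA (0.523 to 0.843 CPM), and the groups did not overlap, as for 15.9% of all tested genes in that direction. It did not pass the filter there; without a filter the log2 fold change was 0.91 ± 0.37 (adjusted p = 0.0853), and in a fit of all 26 libraries together 0.89 ± 0.31 (adjusted p = 0.0229). In that joint fit the response to AA was higher on day 6 than on day 3 by 2.04 ± 0.36 (adjusted p = 1.2e-04).

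Of the markers of other cell types, Vim, of the fibroblast and smooth muscle list, was called in the same directions as Creb5, and the other lists did not follow it throughout. The 12 fibroblast and smooth muscle markers summed to 1.72 to 2.77 CPM in vehicle on day 1 and 6.81 to 6.93 CPM on day 3, with 3.16 to 3.66 and 4.95 to 6.04 CPM with AA and 3.02 to 3.26 and 5.06 to 5.91 CPM with PGE2 on those days. Most of it was Vim, an intermediate filament, at 1.02 CPM in vehicle on day 1 and 4.89 CPM on day 3, while Col3a1, Dcn and Lum were at 0 in both. Vim rose on day 1 with AA (0.82, adjusted p = 0.0206) and PGE2 (0.75, adjusted p = 0.0327) and fell on day 3 with both (-0.60 and -0.53, adjusted p = 0.0179 and 0.0217). Pdgfrb, the other tested gene of the list, fell with PGE2 on day 1 (-1.88, adjusted p = 0.00230) and was not called otherwise against vehicle. The 12 immune markers summed to 9.30 to 11.6 CPM in vehicle on day 1 and 19.1 to 22.4 CPM on day 3, with 7.87 to 9.71 and 10.2 to 14.3 CPM with AA and 9.62 to 10.7 and 13.5 to 15.2 CPM with PGE2. Unlike Creb5, this sum did not rise with treatment on day 1. Most of it in vehicle was Kit, a receptor kinase, at 8.21 and 17.5 CPM, and Ptprc, found on nearly all blood cells, was at 0 on day 1 and 0.0312 CPM on day 3. Kit fell on both days with AA (-0.97 and -1.16) and PGE2 (-0.63 and -1.17). The macrophage genes Cd68 and Csf1r rose on both days, Cd68 by 1.02 and 0.78 with AA and 1.25 and 1.24 with PGE2, and Csf1r by 2.15 and 1.78 with AA and 2.18 and 2.99 with PGE2 (log2, adjusted p from 1.3e-05 to 0.0316). Csf1r was low, with group means from 0.0993 CPM in vehicle on day 1 to 0.955 CPM with PGE2 on day 3. The 12 endothelial and neural markers lay between 1.67 and 5.20 CPM in every group. The part of these cell types in the Creb5 result was not tested, and in bulk RNA fewer cells of a type and less RNA per cell cannot be told apart.

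Crem (ENSMUSG00000063889.16), which encodes both CRE-binding activators and the repressor ICER, passed the test in none of the comparisons. It was at 3.79, 3.69 and 4.77 CPM in vehicle on day 1 and 5.11, 4.80 and 5.77 CPM with PGE2; all PGE2 libraries lay above all vehicle libraries, by a small margin. The log2 fold change was 0.36 ± 0.19 (95% interval -0.02 to 0.74, adjusted p = 0.0979). Its other responses against vehicle lay between -0.19 and 0.23, with intervals from -0.57 to 0.59. Counts are per gene and do not separate ICER from the longer products. Crem shares exonic bases with Gm6225 on the other strand, which had 638 reads over all libraries to 1737 for Crem. The libraries were made with a kit that keeps the strand, but no source used here says how reads were counted by strand, so the Crem value is uncertain.

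Sik1 (ENSMUSG00000024042.7), the salt-inducible kinase that holds CRTCs in the cytoplasm, rose with PGE2 on both days with little spread. It was at 18.9, 19.3 and 18.1 CPM in vehicle on day 1, 25.6, 24.3 and 23.3 CPM with AA and 31.6, 34.7 and 35.3 CPM with PGE2. The 3 groups of day 1 did not overlap, with vehicle lowest and PGE2 highest. The log2 fold change was 0.85 ± 0.07 with PGE2 (adjusted p = 1.7e-11) and 0.38 ± 0.07 with AA (adjusted p = 1.1e-04). On day 3 it was at 18.7, 17.4 and 17.3 CPM in vehicle, 20.4, 20.2 and 18.5 CPM with AA and 28.1, 30.3 and 27.1 CPM with PGE2. The PGE2 libraries again stood above all others (0.67 ± 0.07, adjusted p = 4.6e-09), while AA and vehicle overlapped (0.14 ± 0.08, adjusted p = 0.162). On day 6 vehicle ranged from 20.9 to 24.6 CPM and AA from 19.1 to 22.9 CPM (-0.11 ± 0.08, adjusted p = 0.310).

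The PDE4 enzymes degrade cAMP and are known as a main brake on PKA. Pde4d (ENSMUSG00000021699.17) was the most expressed of the 3 per length of exon, at 1.43 CPM per kb in vehicle on day 1, against 0.170 for Pde4a and 0.0143 for Pde4b. It was at 16.1, 18.4 and 17.0 CPM in vehicle on day 1, 20.9, 24.1 and 22.9 CPM with AA and 31.4, 27.7 and 30.9 CPM with PGE2. The 3 groups did not overlap. It rose with PGE2 (0.81 ± 0.17, adjusted p = 0.00100), and its change with AA was not called (0.40 ± 0.18, adjusted p = 0.0880). The AA change passed the threshold with DESeq2 (adjusted p = 0.0189), with no filter (0.0326) and with only the groups compared (1.2e-04), and under no other alternative. On day 3 vehicle held 16.5, 29.6 and 17.1 CPM and PGE2 24.6, 29.5 and 24.7 CPM, and the groups overlapped through vehicle replicate 2. The log2 fold change was 0.33 ± 0.17 (adjusted p = 0.115), and without that library it was 0.64 (adjusted p = 1.9e-06). Vehicle replicate 2 of day 3 was also the highest of its group for Creb5, Per1, Pde4a, Pde4b and Rgs2. With AA it was at 19.0, 17.3 and 22.6 CPM on day 3, and it was not called (-0.08 ± 0.18, adjusted p = 0.755).

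Pde4b (ENSMUSG00000028525.16) was nearly silent in vehicle on day 1, with 2 reads in each library (0.143, 0.154 and 0.156 CPM). With AA it had 5, 4 and 6 reads (0.345, 0.301 and 0.432 CPM), and with PGE2 14, 12 and 13 reads (1.07, 1.25 and 1.09 CPM). The 3 groups did not overlap, and the PGE2 rise was 2.82 ± 0.45 on the log2 scale, while that with AA was not called (1.20 ± 0.61, adjusted p = 0.116). On day 3 it had 5, 5 and 4 reads in vehicle (0.360 to 0.442 CPM), 4, 5 and 2 with AA, and 11, 11 and 17 with PGE2 (0.795 to 1.15 CPM), a rise of 1.27 ± 0.38 with PGE2. Pde4b was tested on days 1 and 3 only because its PGE2 libraries were high, so its calls with PGE2 are no support. Counts this low also carry a wide counting error. Pde4a (ENSMUSG00000032177.17) was at 1.57, 0.845 and 1.48 CPM in vehicle on day 1 and 2.52, 2.50 and 2.84 CPM with PGE2, without overlap, a rise of 1.00 ± 0.30 (adjusted p = 0.00492). Its other responses were not called: 0.50 ± 0.31 with AA on day 1, 0.23 ± 0.30 on day 3, and 0.45 ± 0.28 with PGE2 on day 3. On day 6 none of the 3 was called with AA, at -0.65 ± 0.37 for Pde4b, 0.01 ± 0.20 for Pde4a and 0.05 ± 0.08 for Pde4d. These genes have several promoters each, and counts per gene do not separate their long and short products.

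The summed level of the 17 epithelial markers had the same order on day 1 as Sik1, Pde4d and Pde4b. It was 7270 to 8160 CPM in vehicle, 10900 to 11300 CPM with AA and 13500 to 14100 CPM with PGE2, and on day 3 it was 7570 to 8380, 9080 to 10200 and 11100 to 11300 CPM. On day 6 it was 6380 to 7300 CPM in vehicle and 6780 to 7150 CPM with AA. Of the 16 markers tested on day 1, 10 rose and 5 fell with AA and 9 rose and 6 fell with PGE2. The keratin Krt19 rose (0.81 and 1.28) and the stem cell marker Olfm4 fell (-1.73 and -3.85). The part of these markers in the results for the 9 genes was not tested.

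Rgs2 (ENSMUSG00000026360.9) encodes a protein that shortens signalling by G proteins of the Gq class and can act on adenylyl cyclases. It had 7, 7 and 9 reads in vehicle on day 1 and 6, 11 and 10 with PGE2 (0.457 to 1.15 CPM), and the groups overlapped (0.43 ± 0.44, adjusted p = 0.419). On day 3 vehicle held 0.505, 1.06 and 0.750 CPM, AA 0.437, 0.299 and 0.541 CPM, and PGE2 1.31, 1.66 and 1.49 CPM. PGE2 stood above both other groups, with a log2 fold change of 0.97 ± 0.36 against vehicle (adjusted p = 0.0219). This call was lost without vehicle replicate 1 (0.69, adjusted p = 0.142), without PGE2 replicate 2 (0.87, adjusted p = 0.0745) and with DESeq2 (0.96, adjusted p = 0.0802). With AA the values were -0.33 ± 0.47 on day 1, -0.78 ± 0.47 on day 3 and -0.34 ± 0.19 on day 6, none of them called.

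Akap12 (ENSMUSG00000038587.10) encodes gravin, a scaffold that holds PKA near receptors. Its counts were 2, 1 and 0 in vehicle on day 1, 5, 5 and 3 with AA and 7, 6 and 12 with PGE2. On day 3 they were 4, 0 and 1 in vehicle, 4, 2 and 1 with AA and 6, 14 and 10 with PGE2. The PGE2 libraries held more reads than every vehicle library on both days. Summed over the group and scaled by total counts, PGE2 held 9.08 times the vehicle level on day 1 (25 reads to 3, exact 95% counting interval 2.77 to 47) and 5.18 times on day 3 (30 reads to 5, 1.99 to 17.1). With AA the ratio was 4.11 on day 1 (13 reads to 3, 1.13 to 22.5) and 1.31 on day 3 (7 reads to 5, 0.357 to 5.22); the intervals cover counting error only. When edgeR was run without a filter, Akap12 was called with PGE2 on day 1 (3.09 ± 0.72, adjusted p = 1.1e-04) and day 3 (2.29 ± 0.63, adjusted p = 0.00150) and not with AA (1.92 ± 0.83, adjusted p = 0.0981 on day 1; 0.44 ± 0.86, adjusted p = 0.897 on day 3). On day 6 it had 0 reads in all 4 vehicle libraries, where 3 reads stand for 0.152 to 0.186 CPM, and 0, 0, 1 and 2 reads with AA.

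Per1 (ENSMUSG00000020893.17), a repressor of the circadian clock whose transcription CREB can start, rose with PGE2 on both days and was not called with AA. On day 1 it was at 23.5, 22.1 and 18.6 CPM in vehicle, 18.6, 18.9 and 16.6 CPM with AA and 29.0, 26.6 and 27.8 CPM with PGE2. PGE2 stood above both other groups (0.38 ± 0.11 against vehicle, adjusted p = 0.00439), and AA and vehicle overlapped (-0.25 ± 0.11, adjusted p = 0.0774). On day 3 it was at 26, 29.6 and 24.8 CPM in vehicle, 25.8, 26.5 and 18 CPM with AA and 37.2, 37.2 and 37.3 CPM with PGE2. The PGE2 libraries again stood above all others (0.47 ± 0.10, adjusted p = 2.3e-04), and the change with AA was -0.20 ± 0.11 (adjusted p = 0.146). On day 6 AA (27.8 to 37.7 CPM) and vehicle (29.3 to 36.7 CPM) overlapped, at 0.02 ± 0.10 (adjusted p = 0.882).

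**Figure D2:**
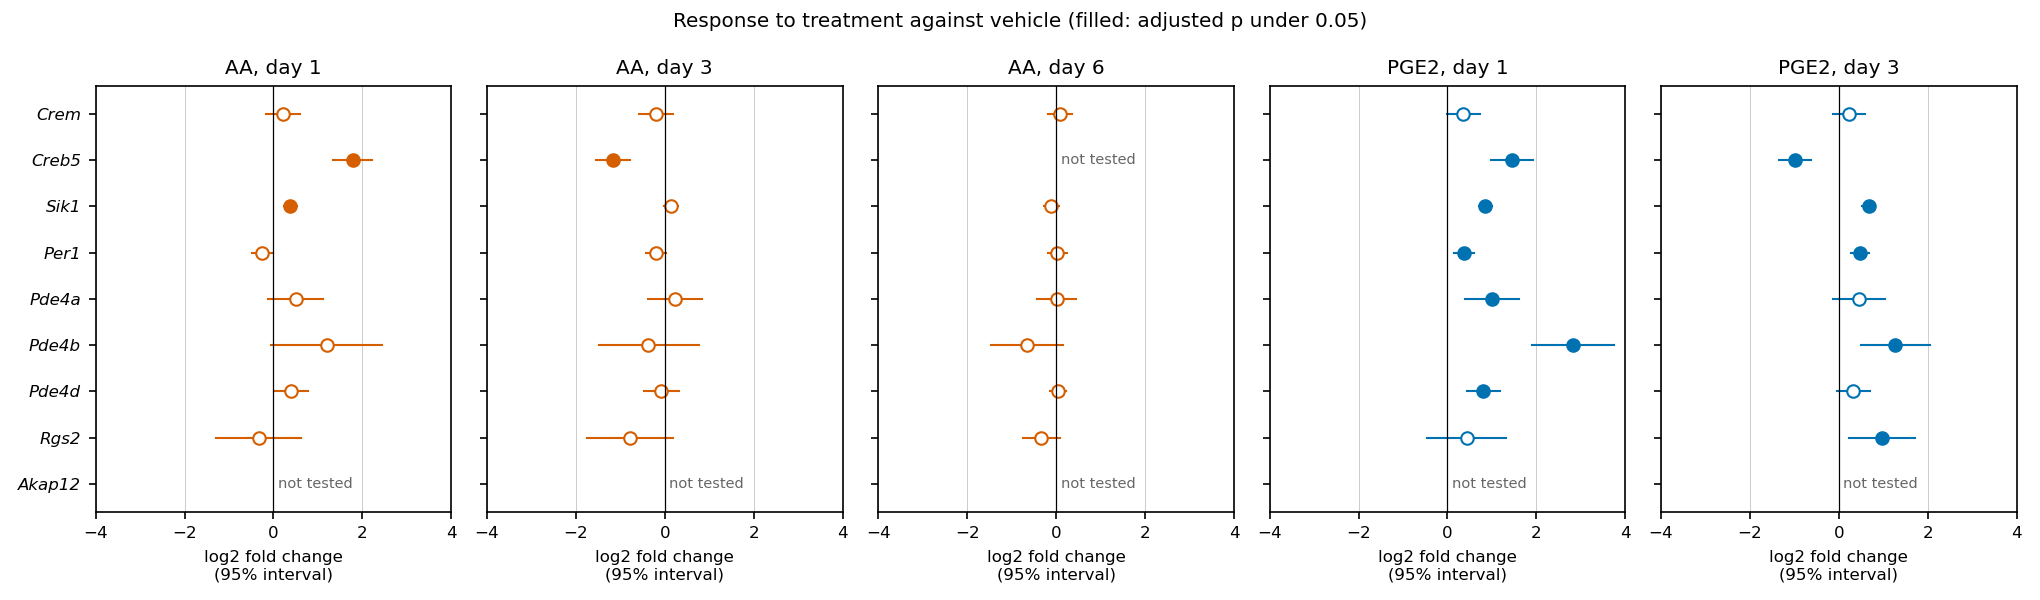
Log2 fold change against vehicle (horizontal axes, with the 95% interval) for each of the 9 genes in the 5 treatment comparisons; filled points have an adjusted p under 0.05. Creb5 lies at 1.78 and 1.46 on day 1 and at -1.16 and -0.99 on day 3, and the AA points of day 6 lie between -0.65 and 0.08.

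Counted without a test, PGE2 on day 1 lay above vehicle in every library for 8 of the 9 genes, all but Rgs2, where 30.3% of the tested genes did so. The same held for 5 genes with PGE2 on day 3 (Sik1, Per1, Pde4b, Rgs2 and Akap12; 30.7% of tested genes) and for 5 with AA on day 1 (Creb5, Sik1, Pde4b, Pde4d and Akap12; 24.6%). With AA on day 3 it held for 0 genes (23.0%). Akap12 was not among the tested genes behind these shares. Pde4b was among them only through its PGE2 libraries, and Rgs2 through PGE2 and day 3 vehicle libraries. Akap12, Pde4b and Rgs2 therefore add no support to these counts. Creb5 lay below vehicle in every library of day 3, both with AA (as did 22.4% of tested genes) and with PGE2 (31.9%).

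The question of whether AA, a precursor of PGE2, gave the same levels as PGE2 was addressed by a direct comparison at the doses used, 25 µM and 50 nM, which differ. On day 1, 3 of the 8 tested genes were lower with AA than with PGE2 and 0 higher, against 16.5% and 11.3% of all tested genes: Sik1 (-0.47 ± 0.07, adjusted p = 2.9e-06), Per1 (-0.63 ± 0.11, adjusted p = 8.4e-05) and Pde4b (-1.62 ± 0.37, adjusted p = 0.00109). On day 3, 4 were lower and 0 higher, against 20.3% and 18.1%: the same 3 genes (Sik1 -0.53 ± 0.07, Per1 -0.67 ± 0.10 and Pde4b -1.64 ± 0.40) and Rgs2 (-1.76 ± 0.40, adjusted p = 8.1e-04). Of these, Pde4b passed the low-count filter only through PGE2 libraries, and Rgs2 through PGE2 and day 3 vehicle libraries. A lower level with AA was favoured in advance for both, so their calls add no support to these counts. Pde4d was not called, at -0.42 ± 0.17 on day 1 (adjusted p = 0.0816) and -0.41 ± 0.17 on day 3 (adjusted p = 0.0747), although its AA libraries lay below its PGE2 libraries on both days; both values passed the threshold with DESeq2 (adjusted p = 0.0226 and 0.0240), with no filter (0.0356 and 0.0495) and with only the groups compared (1.2e-07 and 0.00798). Creb5 differed by 0.32 ± 0.18 on day 1 (95% interval -0.06 to 0.69, adjusted p = 0.215) and -0.17 ± 0.20 on day 3 (-0.59 to 0.24, adjusted p = 0.537). Every AA library lay below every PGE2 library on day 1 for 6 of the 9 genes, against 25.2% of tested genes. They were Sik1, Per1, Pde4a, Pde4b, Pde4d and Akap12. This held on day 3 for 6 as well, against 25.0%, with Rgs2 in place of Pde4a. Akap12 was not among the tested genes.

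Between days in vehicle, 2 of the 8 tested genes were higher on day 3 than on day 1 and 0 lower, against 19.8% and 20.5% of all tested genes. They were Creb5, given above, and Per1 (0.32 ± 0.11, adjusted p = 0.0199), whose call was lost without vehicle replicate 3 of day 1 (0.23, adjusted p = 0.117) or replicate 2 of day 3 (0.24, adjusted p = 0.106). For Sik1 the value was -0.07 ± 0.08 (95% interval -0.23 to 0.09). Of the responses, that of Creb5 was the only one of the 8 whose difference between days 1 and 3 was called, both with AA (lower, as in 7.95% of all tested genes) and with PGE2 (lower, as in 11.6%). It was also the only one whose AA response differed between days 3 and 6 (higher, as in 8.78% of 15504 genes). For Sik1, the day 3 minus day 1 difference was -0.24 ± 0.11 with AA (adjusted p = 0.137) and -0.18 ± 0.10 with PGE2 (adjusted p = 0.240). For Pde4b it was -1.57 ± 0.82 with AA and -1.56 ± 0.69 with PGE2 (adjusted p = 0.193 and 0.104), so a smaller response on day 3 was not shown at this depth.

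**Figure D3:**
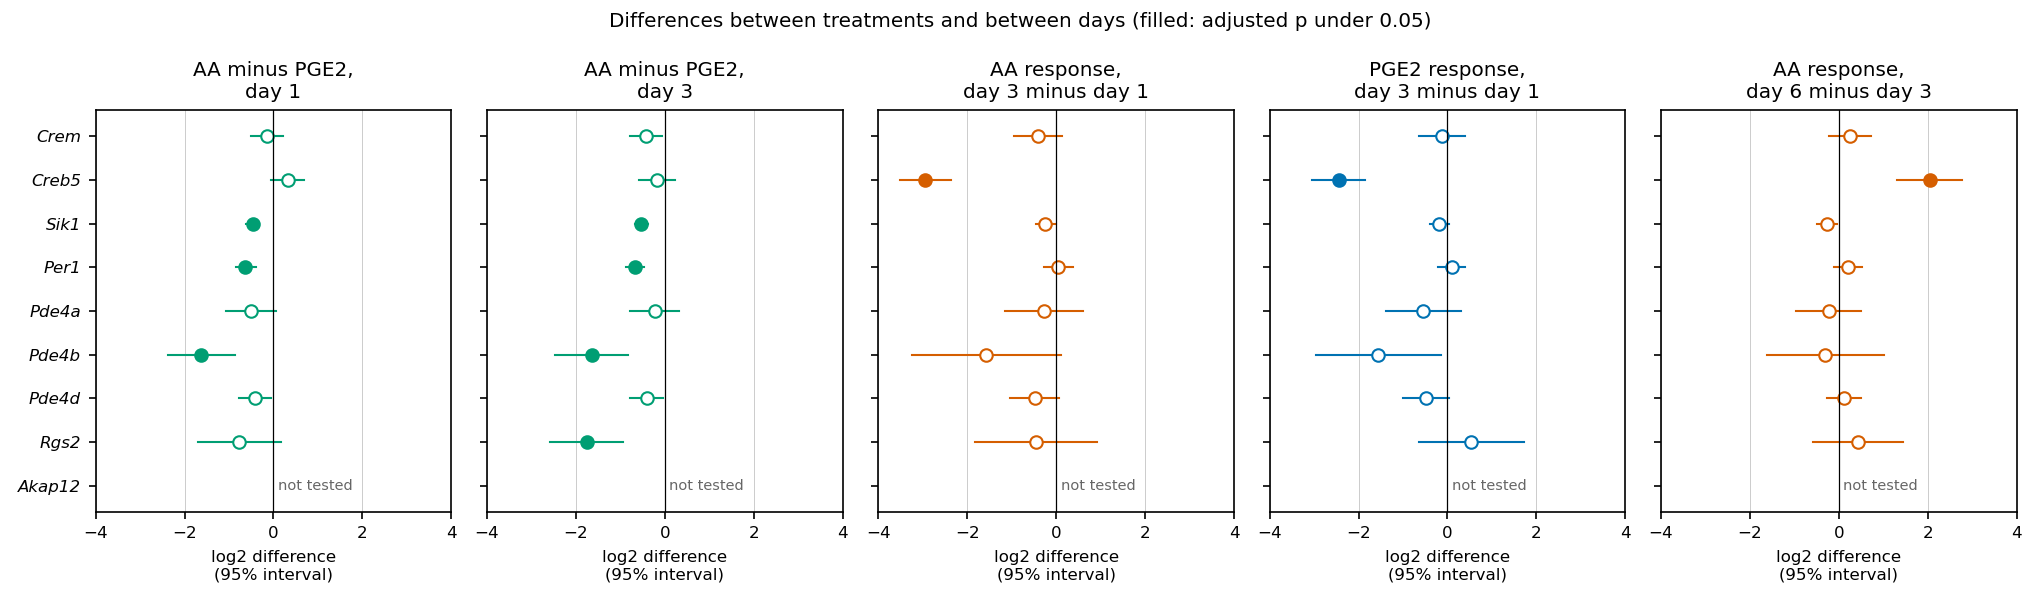
Log2 differences (horizontal axes, with the 95% interval) between AA and PGE2 on each day and between the responses of different days for each of the 9 genes; filled points have an adjusted p under 0.05. Sik1, Per1 and Pde4b lie below 0 on both days between AA and PGE2, and Creb5 alone is filled in the 3 panels of differences between days.

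Per length of exon, Per1 and Sik1 were the most expressed of the 9 genes in all 8 groups. In vehicle on day 1 the order was Per1 (3.80 CPM per kb), Sik1 (3.66), Pde4d (1.43), Crem (0.692), Pde4a (0.170), Rgs2 (0.160), Creb5 (0.0614), Pde4b (0.0143) and Akap12 (0.0113). With PGE2 on day 1 Sik1 came first (6.60 CPM per kb) and Per1 next (4.93). The pairs Per1 and Sik1, Pde4a and Rgs2, and Pde4b and Akap12 lay within each other's spread in vehicle on day 1.

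Over the 18 libraries of days 1 and 3, the levels of Sik1 and Pde4b moved most alike among the 8 tested genes (Pearson r = 0.83 of log2 CPM), followed by Sik1 with Pde4d and Pde4a with Pde4b (0.74 each) and Pde4b with Pde4d (0.73). Creb5 was least like the others, from 0.08 with Rgs2 to 0.42 with Pde4b. Such values describe libraries that share groups, cultures and depth. Among 10805 expressed genes, Sik1 was most like Macf1, a cytoskeletal linker (r = 0.98), which stood at 271 ± 19.9 CPM in vehicle, 551 ± 8.95 with AA and 1090 ± 22.9 with PGE2 on day 1, and Pkp1, a desmosome protein (0.97). Creb5 was most like Sorbs2, an adaptor of the actin cytoskeleton (0.89), at 95.1 ± 3.65, 173 ± 5.65 and 184 ± 2.87 CPM on day 1 and 187 ± 32.3, 152 ± 7.46 and 157 ± 1.51 CPM on day 3, and Plekhg5 (0.87). The nearest genes of the others were Tsc2 (0.93) and Fbxl18 (0.92) for Per1, Asap2 and Slc37a3 (0.95 each) for Pde4b, Ddhd1 (0.93) and Nsmaf (0.91) for Pde4d, Zfyve16 (0.86) and Etl4 (0.83) for Pde4a, Sec14l5 (0.80) and Traf3ip2 (0.79) for Rgs2, and Il3ra and Cdkn1c (0.75 each) for Crem.

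Upstream of cAMP, the receptor EP4 was expressed and EP2 was not detected. Ptger4 was at 18.1 ± 1.93 CPM in vehicle on day 1, 25.7 ± 1.43 with AA and 27.2 ± 3.12 with PGE2 (SD, n = 3). It rose with both (0.50 ± 0.09 and 0.59 ± 0.09, adjusted p = 2.4e-05 and 1.3e-06) and with PGE2 on day 3 (0.39 ± 0.09, adjusted p = 5.2e-04). Ptger2 had 0 reads in all 26 libraries, where 3 reads stand for at most 0.297 CPM, and Ptger1 and Ptger3 stayed under 1 CPM in every group mean. For the lists that follow, 19.5% of all tested genes rose and 22.2% fell with AA on day 1, and 27.0% rose and 28.9% fell with PGE2, with medians of -0.03 and -0.02. Of the 10 tested receptors and G proteins, 4 rose and 1 fell with AA on day 1, and 7 rose and 2 fell with PGE2 (medians 0.25 and 0.48). The list mixes G proteins that stimulate adenylyl cyclases with G proteins that inhibit them. The G proteins that rose with AA were all inhibitory, and with PGE2 both kinds rose, so the counts give no direction for cAMP. With PGE2, Vipr1, a receptor for vasoactive intestinal peptide, fell on day 1 (-0.77 ± 0.06) and rose on day 3 (1.04 ± 0.06). Of 5 tested adenylyl cyclases, which make cAMP, 2 rose and 0 fell with AA on day 1, and 3 rose and 1 fell with PGE2 (medians 0.45 and 0.73). Adcy4 (1.18 ± 0.24 and 1.31 ± 0.24) and Adcy8 (0.45 ± 0.12 and 0.76 ± 0.12) rose with both, and Adcy6 fell with PGE2 (-0.30 ± 0.07). Adcy6 was the highest of the 5, at a mean log2 CPM of 7.64, against 1.27 for Adcy4 and 3.34 for Adcy8. The rises were thus of cyclases with far fewer reads than the one that fell.

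Of 9 tested genes for PKA subunits, PKA inhibitors and Epac, 4 fell and 1 rose with AA on day 1 and 4 fell and 2 rose with PGE2 (medians -0.07 and 0.30), where 22.2% and 28.9% of all tested genes fell and 19.5% and 27.0% rose. Pkig, an inhibitor of PKA, fell with AA (-0.67 ± 0.07) and PGE2 (-1.19 ± 0.08), from 35.6 ± 0.546 CPM in vehicle to 22.3 ± 0.672 and 15.7 ± 1.43 CPM. Prkacb, a catalytic subunit, fell too (-0.49 ± 0.12 and -0.39 ± 0.12). Prkar1a, a regulatory subunit of PKA, rose with PGE2 on day 1 (0.30 ± 0.06) and day 3 (0.29 ± 0.06) and was not called with AA on day 1 (0.04 ± 0.06). Of 9 phosphodiesterase genes outside the PDE4 family, 0 rose and 3 fell with AA on day 1, and 2 rose and 5 fell with PGE2 (medians -0.30 and -0.53), beside the same shares of all genes, with falls of Pde3a (-0.53 ± 0.09) and Pde7a (-0.34 ± 0.07) with PGE2. Pde10a (mean log2 CPM 0.02), chosen after its values were seen, went from 0.0714 ± 0.124 CPM in vehicle to 2.27 ± 0.427 CPM with PGE2 on day 1. On day 3 it went from 0.133 ± 0.0723 to 2.26 ± 0.204 CPM. Its vehicle means lay under the low-count filter of about 0.758 CPM. It was tested because its PGE2 libraries were high, so its p-values are no support and are left out.

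Among 15 tested CREB family factors and co-activators, 2 rose and 5 fell with AA on day 1 and 2 rose and 3 fell with PGE2 (medians 0.01 and 0.02). That is 2 of 15 and 3 of 15 with PGE2, where 27.0% of all tested genes rose and 28.9% fell, and with AA 19.5% and 22.2% did. Creb1 fell with PGE2 on day 1 (-0.42 ± 0.05, adjusted p = 5.3e-09) and day 3 (-0.53 ± 0.05), and the co-activator Crtc1 fell on day 1 as well (-0.46 ± 0.10). Creb3l3, a membrane-bound factor of liver and gut, rose with AA on all days (0.92 ± 0.10, 1.26 ± 0.10 and 1.23 ± 0.09), including day 6, when none of the 9 genes was called. Of 3 other genes of the SIK pathway, Sik3 rose with PGE2 on day 1 (0.39 ± 0.06).

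Of 22 tested genes known as CREB targets, 12 rose and 1 fell with AA on day 1, 12 rose and 2 fell with AA on day 3, and 8 rose and 2 fell on day 6. With PGE2, 18 rose and 2 fell on day 1 and 15 rose and 4 fell on day 3. The shares of all tested genes that rose were 19.5%, 21.2% and 15.3% with AA and 27.0% and 28.9% with PGE2, in the same order. The medians of the list were 0.71, 0.31 and 0.28 with AA and 1.01 and 0.61 with PGE2. Dusp1, a phosphatase of MAP kinases, went from 1.93 ± 0.445 CPM in vehicle to 9.92 ± 1.19 with AA and 29.7 ± 1.36 with PGE2 on day 1 (2.35 ± 0.17 and 3.93 ± 0.15). Ptgs2, the inducible cyclooxygenase, went from 3.44 ± 0.644 to 23.7 ± 2.20 and 36.9 ± 3.38 CPM (2.78 ± 0.12 and 3.42 ± 0.12), and Gadd45a, a stress gene, fell (-0.63 ± 0.11 and -0.77 ± 0.12). Many of these genes also answer to other signals. The list was chosen with earlier results of these data known, so its counts are no independent support.

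Among the relatives of Rgs2, Akap12 and Per1 the direction was mixed. The shares of all tested genes that rose and fell were 19.5% and 22.2% with AA on day 1, 27.0% and 28.9% with PGE2 on day 1, and 28.9% and 30.1% with PGE2 on day 3. Of 6 tested RGS genes, 0 were called with AA on day 1 and 2 rose and 0 fell with PGE2 (medians 0.10 and 0.50). With PGE2 on day 3, 2 rose and 1 fell (median -0.10). Rgs5 rose there (1.59 ± 0.13, from 5.36 ± 1.00 to 16.3 ± 0.696 CPM), and Rgs11 fell (-1.17 ± 0.19, adjusted p = 2.9e-06). Of 9 other kinase anchoring genes, 2 rose and 2 fell with AA on day 1, near the shares of all genes, and 2 rose and 4 fell with PGE2 (medians -0.08 and -0.10), with rises of Akap13 (0.82 ± 0.06 and 1.07 ± 0.06) and Akap5 (0.65 ± 0.22 and 1.29 ± 0.20). Of 16 other clock genes, 2 rose and 7 fell with AA on day 1, 2 rose and 6 fell with PGE2 on day 1, and 2 rose and 10 fell with PGE2 on day 3 (medians -0.25, -0.27 and -0.34). Per2, the close relative of Per1, fell with PGE2, with which Per1 rose, on day 1 (-1.26 ± 0.13, from 20.0 ± 1.43 to 8.32 ± 0.577 CPM) and day 3 (-0.67 ± 0.10). It fell with AA too (-0.80 ± 0.11 and -0.51 ± 0.10), with which Per1 was not called and had the same sign. On day 6, 6 of the 16 rose and 0 fell with AA, against 15.3% and 15.5% of all tested genes, among them Npas2 (0.99 ± 0.09).

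**Figure D4:**
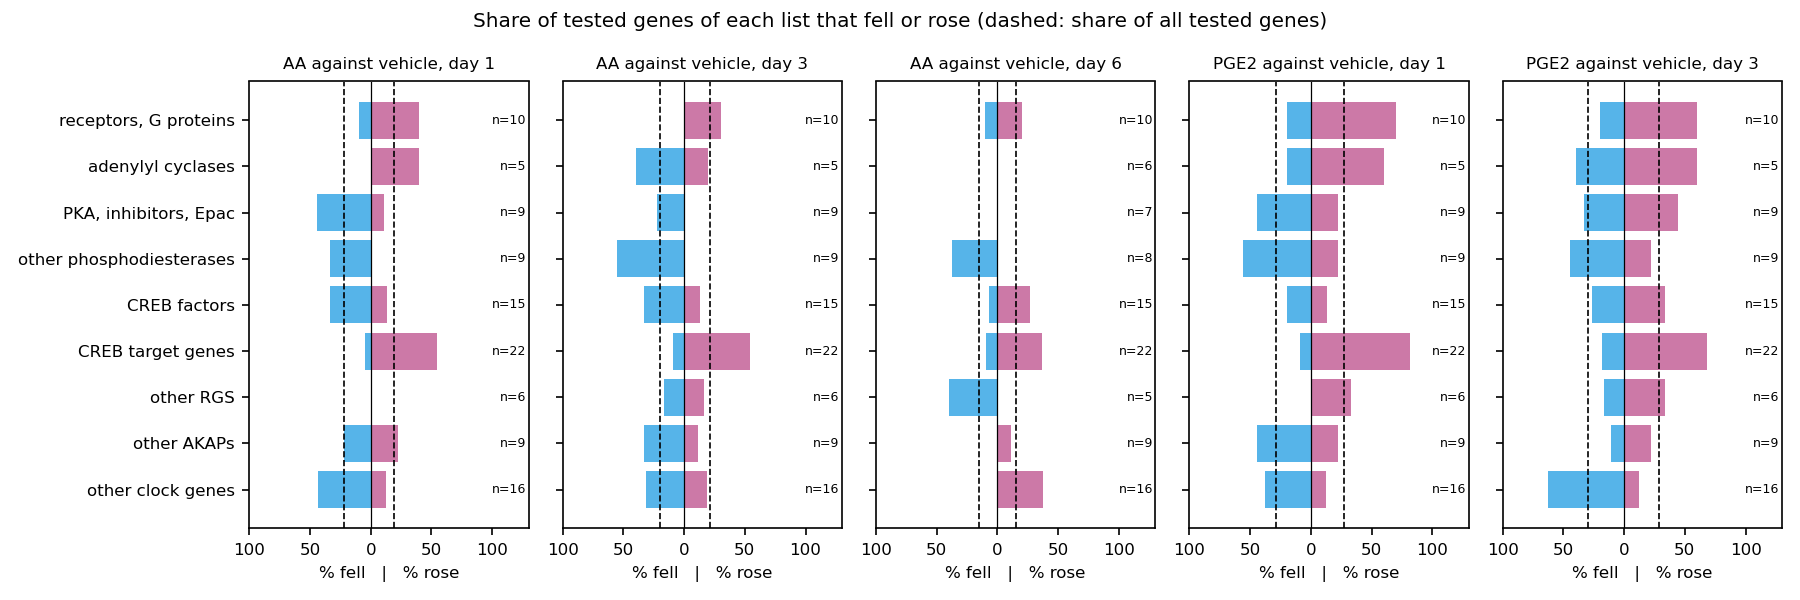
Share of the tested genes of each pathway list (rows, n beside each bar) that fell (left) or rose (right) at an adjusted p under 0.05, in percent, for the 5 treatment comparisons; dashed lines mark the share among all genes tested. The CREB target genes stand at 18 of 22 risen with PGE2 on day 1 and 8 of 22 with AA on day 6. All lists were chosen with earlier results of these data known.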

How the data were processed

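RNA of 26 organoid libraries was sequenced from kits that keep the strand, per the labels' protocols. The authors deposited raw counts of reads per gene, with day 6 in a table of its own. The submitters' processing notes list limma 3.46, DESeq2, STAR and cutadapt and give no roles, beside the build GRCh38.p6. That is a human build name while the identifiers are mouse Ensembl genes, and no source used here gives the counting program or its strand setting. Of 55385 identifiers, 55144 matched a mouse symbol, and 0 columns were left without a sample.

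Counts were tested with edgeR 4.0.16 (R 4.3.3, quasi-likelihood, robust, TMM scaling, filterByExpr) with 1 mean per group: 14850 genes in the 18 libraries of the first table (12 residual degrees of freedom) and 14663 genes in the 8 of the other (6). The difference between the AA responses of days 6 and 3 came from a joint fit of all 26 (15504 genes, 18). P-values were adjusted by Benjamini-Hochberg over all genes tested, with a threshold of 0.05, and standard errors and 95% intervals were taken from the test's p-value. Of the genes outside the 9, the text names the 2 most correlated with each of them and, of each pathway list, up to 2 rises and 2 falls with the largest changes at a mean log2 CPM of at least 1, and Ptger1 to Ptger4. Pde10a and the cell type markers were named outside this rule. The 9 genes and all lists were chosen with earlier results of these data known. Exon lengths and overlaps came from GENCODE annotation of the mouse, and promoter windows from RefSeq. The tests were checked on simulated counts. Alternatives were DESeq2 1.42.0, other scalings and filters, a replicate block and leaving out each library. Replicate pairs differed by more than sampling noise (chi-square per degree of freedom from 1.21 to 22.7 over 30 pairs).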

Additional observations from a re-analysis of the deposited data

Results flagged for a closer look

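Pde4b on day 6 of vehicle had 1 library far from the others: replicate 2 held 27 reads (1.38 CPM), the other 3 held 10, 11 and 9 reads (0.535 to 0.610 CPM). The gap to the next library was 0.911 of the group's range, above Dixon's 95% critical value for 4 libraries. It was 1 such case among 17 groups of 4 libraries with any spread, and chance gives about 1 in 20.

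The response of Creb5 differed between days by a test of the difference itself. With AA the difference was -2.94 (day 3 minus day 1, log2) and with PGE2 -2.45, both against the same vehicle libraries, in which Creb5 went from 1.54 ± 0.0957 to 7.24 ± 1.71 CPM. Between days 6 and 3 the AA response differed by 2.04, on a day 6 level of 0.365 ± 0.104 CPM in vehicle and 0.685 ± 0.141 CPM with AA.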

How the results depend on the processing

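All calls of Creb5, Sik1, Pde4a, Pde4b and Pde4d against vehicle, and those of Per1 with PGE2, stayed on their side of the threshold in their direction under every alternative that gave a value. Apart from leaving out libraries, 664 of the values kept direction and side, 15 passed the threshold newly, 1 lost it and 1 turned sign; leaving out each library in turn, 660 kept both, 7 passed newly, 4 lost the threshold and 25 turned sign, all of these uncalled.

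With no filter, or fitted on the contrast's own groups, 4 genes were called with AA on day 1 in place of 2; Per1 fell (adjusted p = 0.0235 and 0.0453) and Pde4d rose (adjusted p = 0.0326 and 1.2e-04). In the joint fit, chosen after seeing the data, 1 gene was called with AA on day 6 in place of 0, Creb5. With only its 4 groups, the day 6 minus day 3 response had 1812 genes called in place of 2969. With total counts alone the day 3 minus day 1 AA response of Per1 turned from 0.05 to -0.00 (adjusted p = 0.992). Other calls gained were Pde4d with AA on day 1 by DESeq2 (adjusted p = 0.0189), Pde4d between AA and PGE2 on days 1 and 3 by DESeq2 (adjusted p = 0.0226 and 0.0240), with no filter (0.0356 and 0.0495) and with only the contrast's groups (1.2e-07 and 0.00798), Crem with PGE2 on day 1 with only the contrast's groups (adjusted p = 0.0411) and Crem between AA and PGE2 on day 3 with total counts (adjusted p = 0.0387). In the other cases the cause was not tested.

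Leaving out each library in turn, the number of the 9 genes called ranged from 0 to 1 with AA on day 6 (1, Creb5, without vehicle or AA replicate 4), from 1 to 3 for vehicle between days, and from 1 to 2 for each difference between responses (2 without vehicle replicate 1 of day 3, where Pde4d reached -0.66 with AA and -0.67 with PGE2, adjusted p = 0.0463 and 0.0287, or without AA replicate 2 of day 6, where Sik1 reached -0.32, adjusted p = 0.0346). Without vehicle replicate 3 of day 1, Per1 was called with AA on day 1 (-0.34, adjusted p = 0.0207). Without PGE2 replicate 1 of day 3, Crem was lower with AA than PGE2 (-0.52, adjusted p = 0.0352). Uncalled values that turned sign ranged as follows. With AA on day 1, Rgs2 ranged from -0.85 to 0.08. With AA on day 3, Pde4a ranged from -0.10 to 0.56 and Pde4d from -0.23 to 0.23. With AA on day 6, Per1 ranged from -0.05 to 0.10, Pde4a from -0.10 to 0.15 and Pde4d from -0.02 to 0.10. Between AA and PGE2 on day 3, Pde4a ranged from -0.55 to 0.14. In vehicle between days, Pde4d ranged from -0.03 to 0.45. For the AA response, day 3 minus day 1, Per1 ranged from -0.04 to 0.20, Pde4a from -0.59 to 0.04 and Rgs2 from -0.87 to 0.06. For day 6 minus day 3, Pde4a ranged from -0.55 to 0.09, Pde4b from -0.62 to 0.16 and Pde4d from -0.21 to 0.28.

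Total counts alone moved the split of all calls (higher to lower): AA on day 3 from 3143 and 2986 to 2459 and 3903, AA against PGE2 on day 1 from 1671 and 2448 to 2570 and 1746, vehicle between days from 2943 and 3039 to 3726 and 2042, the AA response between days 1 and 3 from 1487 and 1181 to 986 and 1410, that of PGE2 from 1876 and 1716 to 2221 and 1277, and the AA response between days 3 and 6 from 1362 and 1607 to 1747 and 1020. Replicate numbers did not pair the libraries: deviations of same-numbered libraries correlated at -0.08 to 0.14, and every library was closest to its own number in none of the comparisons. With the replicate block, Per1 fell with AA on day 1 (-0.25, adjusted p = 0.0316) and Crem was lower with AA than with PGE2 on day 3 (-0.41, adjusted p = 0.0466); 3 genes were called with AA on day 1 and 5 between AA and PGE2 on day 3, and no other call of the 9 changed. DESeq2 gave no adjusted p for Pde4b and Rgs2 in 5 comparisons, and some filters left Pde4b or Rgs2 untested. Depth limits Pde4b, Rgs2 and Akap12, whose vehicle libraries on days 1 and 3 held at most 12 reads each.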
